A study of Mus musculus with 42 samples.

Results

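Input RNA of HA-AVI-Tnrc6a mouse embryonic stem cells was compared with input RNA of untagged cells in experiment 1, as a check of the tagged line against its control. The comparison rests on 6 of the 42 libraries of the series, 3 per group, labelled HA-Tnrc6a input and untagged control input. Of the 18825 genes in the count table of experiment 1, the 15029 on an autosome or on the mitochondrial genome were taken, and 583 genes on X, 9 on Y and 3204 without a chromosome in the annotation used were left out. A filter on low counts passed 15005 of the 15029.

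The untagged cells are a 129S6/SvEvTac embryonic stem cell line that carries the label yGlob [GFP_5xT71BS] and a stable FLAG-Cas9::T2A::Blasticidin transgene. The tagged cells carry HA-AVI-Tnrc6a in addition, and a further line, Trim71KO, is HA-AVI-Tnrc6a and Trim71-/-. All were grown on gelatin in serum with LIF. Input is total RNA of the cleared detergent lysate before immunoprecipitation. Replicates were taken as dishes of 1 line per genotype, which the labels do not state. P-values of experiment 1 rest on a spread per gene shared by all 18 of its libraries, immunoprecipitated and Trim71KO ones included. They do not rest on the compared dishes alone, and do not measure a spread between independently made lines. Tagged input dishes differed more from each other than untagged ones did, as given below. The number of tagged clones is not given in the sources used here, so a change that came with the clone cannot be told apart from one that came with the tag. Experiment 2 holds the same 3 genotypes and its own untagged controls, and serves below as a second comparison that shares no library with experiment 1.

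Tnrc6a is a GW182-family scaffold protein that Argonaute proteins recruit to mRNAs bound by microRNAs, and that brings in deadenylases. Zinc finger genes of the Krüppel-associated box (KRAB) type, many of them named Zfp, encode DNA-binding repressors of transposable elements and lie in large clusters of near-identical copies, one of them on distal chromosome 4. The mitochondrial genome encodes subunits of the respiratory chain and of ATP synthase, transcribed as long precursors that are cut into single mRNAs.

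The 4 sequences printed here belong to neighbouring Zfp genes of distal chromosome 4. Zfp979, Zfp534 and Zfp984 were higher in tagged cells and Zfp933 was not called, as described below, and their promoters are shown because the genes that moved resemble each other there. Each runs from 250 bases before to 50 after a transcript start in the RefSeq promoter table on GRCm38.p6, which for Zfp984 and Zfp933 lies inside the annotated span of the gene, minus strand, written 5′ to 3′ in the direction of transcription, at chr4:147642459-147642758, chr4:147702582-147702881, chr4:147809739-147810038 and chr4:147848369-147848668. Capitals mark a run of 15 bases that the promoters of the called genes share.
Zfp979: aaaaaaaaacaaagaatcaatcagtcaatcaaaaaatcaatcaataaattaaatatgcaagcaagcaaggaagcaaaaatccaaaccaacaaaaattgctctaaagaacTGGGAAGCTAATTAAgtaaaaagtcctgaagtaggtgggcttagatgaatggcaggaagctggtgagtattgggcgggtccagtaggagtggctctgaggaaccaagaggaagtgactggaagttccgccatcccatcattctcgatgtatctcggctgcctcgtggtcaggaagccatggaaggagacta
Zfp534: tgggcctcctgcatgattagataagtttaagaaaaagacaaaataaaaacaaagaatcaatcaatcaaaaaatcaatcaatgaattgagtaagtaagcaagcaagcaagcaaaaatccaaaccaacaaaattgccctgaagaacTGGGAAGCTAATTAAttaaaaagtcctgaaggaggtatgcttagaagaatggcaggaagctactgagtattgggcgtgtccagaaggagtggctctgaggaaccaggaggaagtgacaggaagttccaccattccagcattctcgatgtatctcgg
Zfp984: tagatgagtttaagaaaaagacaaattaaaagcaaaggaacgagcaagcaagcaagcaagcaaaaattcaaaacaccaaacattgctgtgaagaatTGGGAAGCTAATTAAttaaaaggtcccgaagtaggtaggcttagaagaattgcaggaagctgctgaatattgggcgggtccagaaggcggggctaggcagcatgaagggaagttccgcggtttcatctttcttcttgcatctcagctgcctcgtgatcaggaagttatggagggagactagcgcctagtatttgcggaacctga
Zfp933: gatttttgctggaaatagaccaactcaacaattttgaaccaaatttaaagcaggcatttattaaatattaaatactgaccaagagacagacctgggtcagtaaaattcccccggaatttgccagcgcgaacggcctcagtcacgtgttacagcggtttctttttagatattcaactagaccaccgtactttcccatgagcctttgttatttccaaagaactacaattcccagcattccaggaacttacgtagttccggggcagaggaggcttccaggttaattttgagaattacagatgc

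The input libraries of experiment 1 held 14598744 to 23657840 counts. Summed RPKM of 8 embryonic stem cell markers lay between 3599 and 4490 in the 6 libraries, and each summed marker list of another cell type stayed at or below 12.9. Tagged replicate 2 stood apart. Its log2 CPM values correlated with those of the untagged libraries at a mean Pearson's r of 0.958, against 0.983 and 0.984 for tagged replicates 1 and 3 (across genes, which are not independent replicates). The deviation of its genes from the untagged mean fell with gene length (Spearman's rho -0.514 over 7956 genes), as did that of tagged replicate 3 (-0.376), while that of tagged replicate 1 did not (0.124). Each untagged library against the mean of the others of its group gave -0.207 to 0.224. The part of this library and of gene length in the changes below was not tested beyond refits without that library and with a length offset.

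In all, 1598 of 15005 genes (10.6%) passed an adjusted p under 0.05 in edgeR's quasi-likelihood test, which is the threshold for a call throughout. Of these, 866 (5.77%) were higher and 732 (4.88%) lower in tagged cells. The shifts were mostly small, with a median absolute log2 change of 0.47 among called genes, and 119 genes (0.793%) moved at least 2-fold. The 3 tagged and 3 untagged values did not overlap for 5181 genes (34.5%). The split between higher and lower depended on scaling, since 64.3% of calls were higher with DESeq2's size factors in edgeR and 34.0% with library size alone, against 54.2% in the edgeR fit reported. Leaving out tagged replicate 2 lowered the count to 571, of which 554 were among the 1598, and leaving out untagged replicate 1, 2 or 3 left 685, 739 or 864. Without tagged replicate 1 the count was 2509. Each of the 1598 genes kept its sign without tagged replicate 2, and 455 of them were called with each of the 6 libraries left out in turn. Among the 3754 shortest genes (up to 2406 bases) 193 were higher and 64 lower, and among the 3750 longest (from 6442 bases) 161 were higher and 368 lower. With an offset for gene length, edgeR called 1958 genes, 65.4% of them higher.

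**Figure D1:**
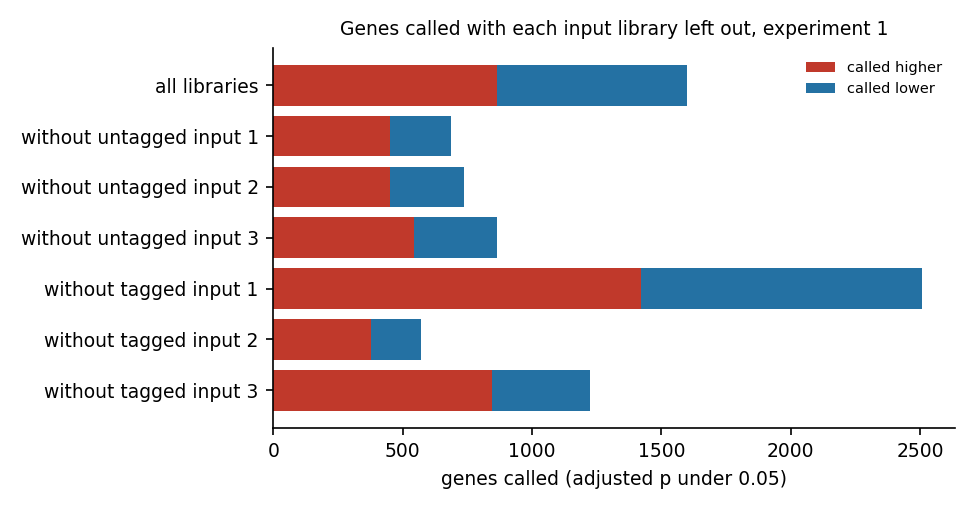
Number of genes called higher (one colour) and lower (the other) in tagged input of experiment 1, with all 6 libraries and with each library left out in turn. The total falls from 1598 to 571 without tagged replicate 2 and rises to 2509 without tagged replicate 1.

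The targeted gene was read first. Tnrc6a stood at 105, 97.4 and 104 CPM in untagged cells and at 95.1, 57.1 and 81.9 CPM in tagged cells. The tagged values all lay below the untagged ones, with replicate 2 the lowest, and the log2 change of -0.39 (SE 0.17) was not called (edgeR adjusted p 0.155). It was called without tagged replicate 1 (log2 change -0.52, edgeR adjusted p 0.0465), in a fit of the 9 input libraries (edgeR adjusted p 0.0467), and not in the other settings. The counts are over the whole gene and do not show whether the tag is present. Trim71, an RNA-binding protein of stem cells, stood at 215 to 231 CPM in untagged and 227 to 265 CPM in tagged cells (log2 change 0.10, SE 0.09, edgeR adjusted p 0.476). Ago2, which encodes an Argonaute protein, was at 346 to 371 CPM and at 358, 179 and 255 CPM (log2 change -0.44, SE 0.18, edgeR adjusted p 0.106). Without tagged replicate 1, Ago2 was called lower (log2 change -0.69, edgeR adjusted p 0.0064). Beside 4.88% lower and 5.77% higher of all genes, 2 of the 7 GW182 and Argonaute genes were called lower and 0 higher. These were Ago1 (log2 change -0.43, edgeR adjusted p 0.0461) and Tnrc6c (log2 change -0.37, edgeR adjusted p 0.0296). Without tagged replicate 2 neither was called (edgeR adjusted p 0.29 and 0.22), nor without tagged replicate 3 or any 1 untagged library. A fit of the 6 compared libraries alone called neither of them. Tnrc6c was not called with the length offset, and Ago1 was not called with DESeq2's size factors in edgeR. Among 20 genes beside Tnrc6a on chromosome 7, 10 on each side, 1 was called: Katnip, 2513 kb away, fell from 12.7, 13.1 and 11.3 CPM to 8.80, 5.62 and 7.03 CPM (log2 change -0.79, SE 0.16, edgeR adjusted p 0.00291). So the genes next to the targeted locus were not called apart from Katnip, the farthest of the 20 on its side. Slc5a11, 19.3 kb away, stood at 9.69, 9.80 and 9.49 against 7.88, 5.85 and 8.38 CPM. Its log2 change of -0.39 (SE 0.13) was not called (edgeR adjusted p 0.0638). The values did not overlap, as for 34.5% of all genes. In experiment 2 its log2 change was -0.38 (SE 0.16), also not called (edgeR adjusted p 0.333).

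The 15 Zfp genes in the interval from Prdm2 to 2510039O18Rik on chromosome 4 (chr4:143107391-147947316) nearly all rose together. This interval was read off the values, so its counts are a description. Of the 15, 14 were called higher in tagged cells, with a median log2 change of 1.24. Their summed level was 837, 699 and 821 CPM in untagged libraries and 1787, 1853 and 1574 CPM in tagged ones, a ratio of 2.21. The sum thus stood well apart in all 3 tagged dishes, tagged replicate 2 included. Trim71KO cells of experiment 1, which carry the same tag and share these untagged controls, stood at 828, 675 and 674 CPM, within or near the untagged range. In experiment 2 the sum was 1131 to 1220 CPM in untagged, 1203 to 1346 CPM in tagged and 1543 to 1691 CPM in Trim71KO cells, and edgeR called 0 of the 15 genes between tagged and untagged cells there, with 6 at an unadjusted p under 0.05. The difference between the experiments was itself called for 13 of the 15 genes.

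Zfp979 (chr4:147611936-147642508) had the largest change of the cluster. It stood at 42.0, 40.1 and 48.1 CPM in untagged and at 132, 155 and 116 CPM in tagged cells (log2 change 1.63, SE 0.11, edgeR adjusted p 6.8e-10). Zfp268 rose from 29.4, 23.7 and 26.5 CPM to 74.2, 79.4 and 62.4 CPM (log2 change 1.44). Zfp990 rose from 119, 95.9 and 116 CPM to 299, 317 and 264 CPM (log2 change 1.41). Zfp534 rose by 1.40, Zfp987 and Zfp988 by 1.29 each, Zfp985 by 1.27 and Zfp984 by 1.24 on the log2 scale. These genes share long stretches of sequence, and how reads that match several copies were counted is not given in the sources used here, so each single-gene value is uncertain and the sum is the safer quantity. Zfp982 rose least of those called (log2 change 0.43, edgeR adjusted p 0.0084). Zfp933, the last of the row, stood at 5.14, 5.36 and 5.15 CPM against 7.45, 5.39 and 5.15 CPM and was not called (log2 change 0.20, edgeR adjusted p 0.52). Of the other 34 genes in the interval, 3 were higher, namely Gm21411, Rex2 and Gm13135, and 1 was lower, Vps13d, with a median log2 change of 0.00. Gm13135 and Vps13d were not called without tagged replicate 2 (edgeR adjusted p 0.191 and 0.286), nor without untagged replicate 1 or 2 or tagged replicate 3. Vps13d was lost without untagged replicate 3 and with the length offset too. The 14 Zfp genes were called in every one of 8 other settings and with each of the 6 libraries left out, with a median log2 change between 1.17 and 1.33.

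**Figure D2:**
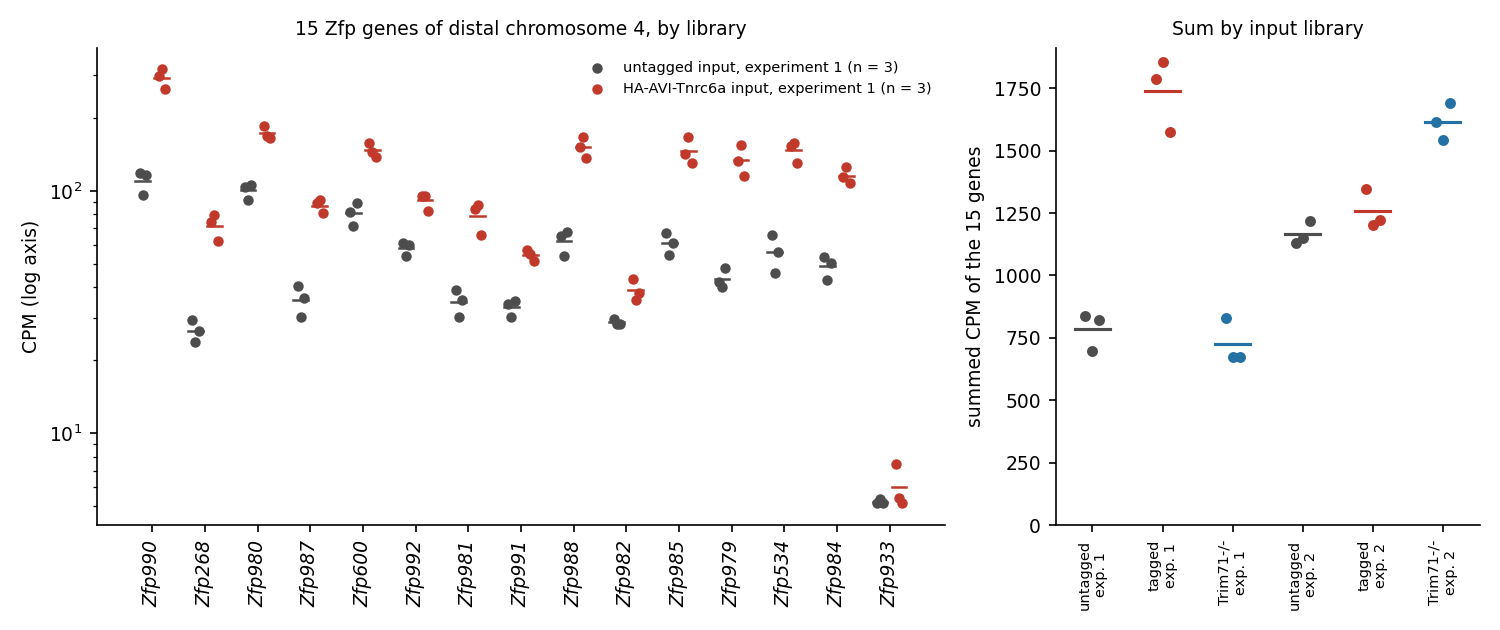
Left, CPM (log axis) of 15 Zfp genes of distal chromosome 4 in each untagged and tagged input library of experiment 1, 3 points a group. Right, the summed CPM of the 15 genes in the untagged, tagged and Trim71KO input libraries of both experiments: 699 to 837 in untagged and 1574 to 1853 in tagged cells of experiment 1, while tagged and untagged cells lie close together in experiment 2.

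RefSeq promoters were at hand for 11 of the 15 genes, 10 of them called. Some genes have several listed starts, and for these the promoter that holds the shared run was taken, a choice that the identities below contain. Between pairs of the 10 called genes, 58.2% to 94.8% of aligned positions were identical (median 75.4%, 45 pairs). The promoter of Zfp933 matched theirs at 49.6% to 52.2%. For scale, that of Zfp979 matched 2037 other promoters of chromosome 4 at a median of 47.6% and at most at 54.4%. Promoters of these 11 genes, of Rex2 and any other with the shared run had been left out of the 2037. That maximum therefore does not cover the related copies known here. All 10 called genes share the run TGGGAAGCTAATTAA, the longest run common to them, which begins 106 to 164 bases before the listed transcript start. On the same strand it lies in 12 of 32851 promoters (0.0365%), all on chromosome 4, and on the opposite strand in 0. Of these 12 genes 11 were tested and all 11 were called higher, but 10 of the 11 are the genes the run was read from. The other was Rex2, a zinc finger gene of the same cluster. A shared run describes related copies and is no evidence of a binding site.

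Zinc finger clusters on other chromosomes moved the same way by less. Of all 346 genes named Zfp with a number, 56 were higher and 12 lower, beside 5.77% and 4.88% of all genes. Off chromosome 4 these were 42 (13.1%) and 12 (3.74%) of 321. When tagged replicate 2 was left out, the number higher fell to 35 of the 346 and to 21 of the 321. Of all 15005 genes 376 were then higher. On chromosome 17, 13 of the 22 Zfp genes in the windows with the largest rise were called higher (median log2 change 0.59), and their sum was 218, 199 and 213 CPM in untagged and 313, 300 and 284 CPM in tagged cells. Zfp758 rose most there, from 1.76 ± 0.03 to 5.24 ± 0.57 CPM (SD, n = 3, log2 change 1.57). On chromosome 13, Zfp808, Zfp935 and Zfp934 were all higher (log2 change 0.93, 0.56 and 1.08). These windows and genes were chosen after their values were seen. Among all windows of 15 neighbouring tested genes, the largest median rise was on chromosome 18, from Zmat2 to Pcdhac1. Its median log2 change was 1.08 in experiment 1, with 0 genes called, and 0.16 in experiment 2. In experiment 2 the chromosome 17 sum lay between 286 and 318 CPM in the 9 untagged, tagged and Trim71KO input libraries, close to the tagged level of experiment 1. There edgeR called 0 of the 22 genes, with 1 at an unadjusted p under 0.05. Without tagged replicate 2, 8 of the 13 genes on chromosome 17 and 2 of the 3 on chromosome 13 were still called higher, Zfp935 not (edgeR adjusted p up to 0.167 with a library left out).

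Mitochondrially encoded mRNAs were higher as a group. They took 1.06% to 1.11% of counts in untagged and 1.79% to 2.06% in tagged libraries, and 1.44% to 1.57% in Trim71KO libraries, which share the untagged controls. Of the 13 mRNAs 12 were called higher, beside 5.77% of all genes, with a median log2 change of 1.14. Values did not overlap in 12, beside 34.5% of all genes. ATP8, an ATP synthase subunit, had the largest change, from 16.4, 12.5 and 11.9 CPM to 77.4, 59.4 and 72.6 CPM (log2 change 2.35, SE 0.17, edgeR adjusted p 2.58e-09). ATP6, which follows it on the same transcript, rose from 491, 428 and 457 CPM to 1144, 1187 and 1096 CPM (log2 change 1.32). ND2, ND6 and ND3, subunits of complex I, rose by 1.40, 1.28 and 1.25, and COX1, a cytochrome oxidase subunit, by 0.74 on the log2 scale. ND4L was the exception, at 11.6, 11.6 and 10.2 CPM against 11.4, 8.31 and 16.8 CPM (log2 change 0.13, edgeR adjusted p 0.704). Its tagged values spread on both sides of the untagged ones. The median without tagged replicate 2 was 0.90, with 11 called, and each other setting gave 11 or 12 called. In experiment 2 the share was 1.24% to 1.58% in untagged and 1.53% to 1.82% in tagged cells, edgeR called 0 of 13, with 2 at an unadjusted p under 0.05, and the median log2 change was 0.19. The difference between the experiments was called for 9 of the 13. Gm10925, a chromosome 1 gene nearly identical to ATP6, showed the same log2 change of 1.32, and reads of the pair may be shared.

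**Figure D3:**
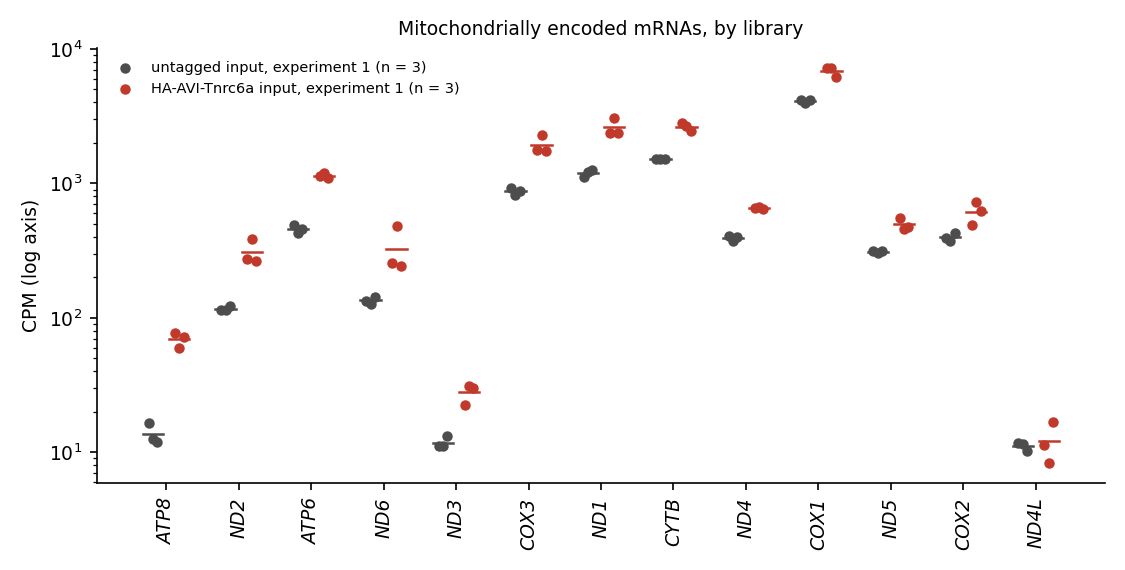
CPM (log axis) of the 13 mitochondrially encoded mRNAs in each of 3 untagged and 3 tagged input libraries of experiment 1. The tagged points lie above the untagged ones for 12 of 13, by most for ATP8 and not for ND4L.

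Lower RNA levels in tagged cells ran through 2 stretches of chromosome 10 in both experiments. Their edges were set after the values of both experiments were seen, so what follows is a description with no test of the stretches. The first, from Reps1 to Epb41l2 (chr10:18055562-25523519), holds 24 genes at a mean log2 CPM of at least 2. Of these 21 had a log2 change below 0, 8 were called lower and 0 higher, and the median was -0.30. The second, from Reep3 to Ipmk (chr10:67009189-71385885), holds 18 such genes, of which 17 were below 0 and 7 were called lower (median -0.36). Of the other 512 genes of the chromosome 31 were called lower and 37 higher, and the median of the 512 was 0.02. Outside the stretches, 1 window of 15 neighbouring tested genes of any level, from Kif5a to Lrp1 (chr10:127225695-127621148), was also lower in experiment 1. There 7 genes were called lower and 0 higher, with a median of -0.53, and the median in experiment 2 was -0.15. Over the 10 genes before and after each stretch the medians were 0.15 and 0.22 for the first and 0.06 and -0.18 for the second. Without tagged replicate 2, 5 and 4 genes were still called lower, and the medians were -0.28 and -0.32.

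The shift was alike in the separate libraries. Against the untagged mean, the median of the first stretch was -0.26, -0.33 and -0.33 in the 3 tagged libraries and -0.32 to -0.38 in Trim71KO libraries, which share the controls. That of the second was -0.31, -0.46 and -0.42, and -0.42 to -0.50. In experiment 2, with its own controls, the medians were -0.39 to -0.45 and -0.43 to -0.45 in tagged cells, and -0.26 to -0.32 and -0.46 to -0.51 in Trim71KO cells. All genes below were picked after their values were seen, as the 10 of these stretches called lower in both experiments. Reps1, an endocytosis adaptor, stood at 50.7, 48.2 and 49.9 CPM in untagged and at 34.9, 30.0 and 36.8 CPM in tagged cells (log2 change -0.55, SE 0.09). Hbs1l, a factor that rescues stalled ribosomes, fell from 76.5, 77.1 and 82.0 CPM to 54.8, 61.1 and 57.8 CPM (log2 change -0.44, SE 0.08). Its experiment 2 change was -0.50 (SE 0.06). Map7 (a microtubule-binding protein), Ahi1 (a cilium gene), Med23 (a Mediator subunit) and Epb41l2 (a membrane skeleton protein) changed by -0.49, -0.54, -0.48 and -0.58. In the second stretch Ccdc6 fell from 57.4, 57.4 and 58.3 CPM to 44.1, 34.3 and 39.1 CPM (log2 change -0.56, SE 0.11), and by 0.56 in experiment 2. Rtkn2, Ipmk (an inositol phosphate kinase) and Cisd1 (a mitochondrial outer membrane protein) changed by -0.59, -0.39 and -0.33. Not every gene in the stretches moved. Cited2, a transcriptional co-regulator, was at 47.5, 47.7 and 43.1 against 48.1, 46.6 and 44.5 CPM (log2 change 0.01, edgeR adjusted p 0.976). Without tagged replicate 2, Med23 and Ipmk were not called (edgeR adjusted p 0.11 and 0.098). Med23, Cisd1, Ipmk and Ahi1 were each lost without at least 2 libraries (highest edgeR adjusted p 0.219, for Cisd1), and the other 6 of the 10 were called in each of those refits. Chromosome 8, also picked after its values were seen, leaned lower as a whole. Of its 819 genes 60 were called lower and 21 higher in experiment 1 (median -0.04), beside 4.88% and 5.77% of all genes. Experiment 2 called 21 of them lower and 2 higher (median -0.10), beside 0.66% and 0.73%. This lean was not tested.

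**Figure D4:**
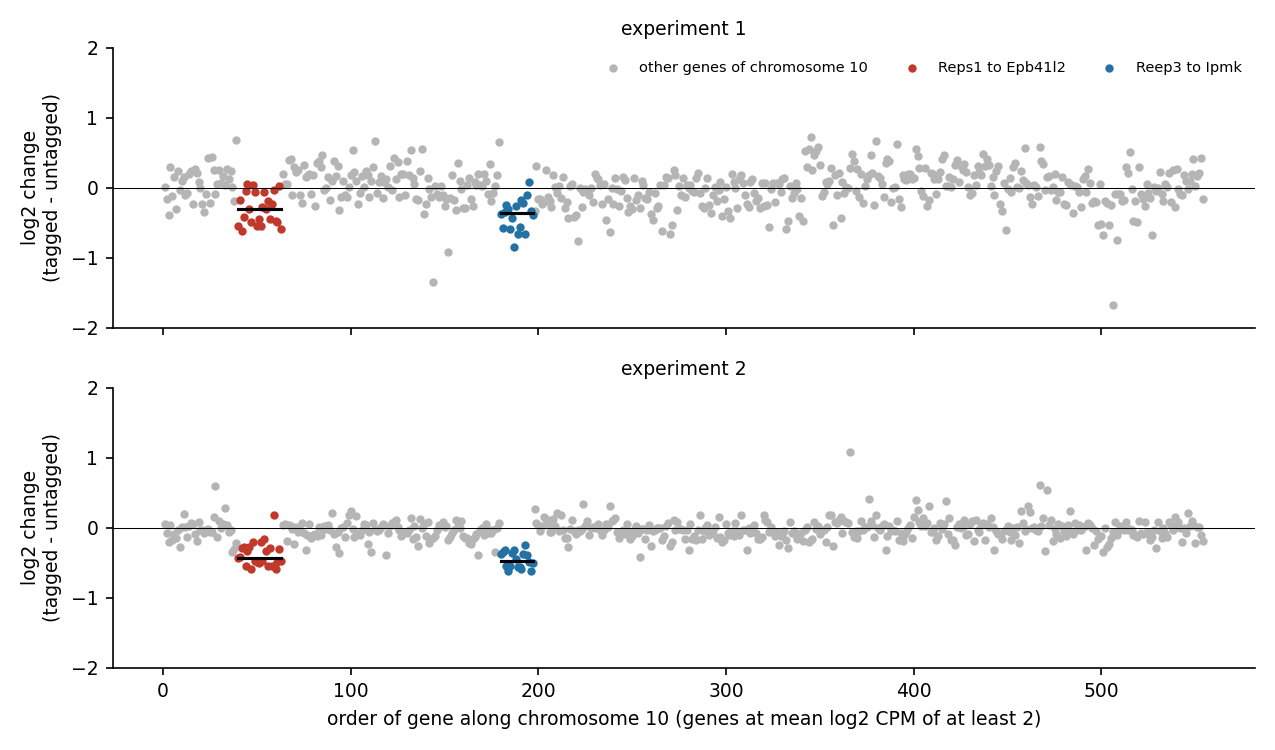
Log2 change (tagged minus untagged input) of genes at a mean log2 CPM of at least 2 in their order along chromosome 10, experiment 1 above and experiment 2 below, with the stretches coloured. Points of the first stretch (24 genes) and the second (18 genes) lie mostly below 0, with medians of -0.30 and -0.36 in experiment 1 and -0.43 and -0.47 in experiment 2.

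Single genes with large changes lay elsewhere in the genome. Slc24a5, an ion exchanger of pigment cells, stood at 19.4, 19.4 and 19.8 CPM in untagged and at 49.9, 65.7 and 47.0 CPM in tagged cells (log2 change 1.47, SE 0.13, edgeR adjusted p 6.51e-08). All 3 tagged values were well above the untagged ones. The predicted gene Gm8935 rose from 32.7, 26.3 and 35.1 CPM to 77.2, 80.1 and 69.7 CPM (log2 change 1.27). The largest fall among genes at a mean log2 CPM of at least 2 was that of Bc1, a small brain cytoplasmic RNA. It went from 17.5, 23.0 and 13.3 CPM to 1.48, 4.70 and 0.38 CPM (log2 change -3.04, SE 0.42, edgeR adjusted p 7.13e-05). In Trim71KO cells, which share the controls, Bc1 was at 4.85 to 10.2 CPM. Lars2, a mitochondrial leucyl-tRNA synthetase, fell from 668, 603 and 603 CPM to 229, 130 and 239 CPM (log2 change -1.65), and Mir6236 from 30.8, 35.7 and 30.2 CPM to 7.88, 5.45 and 9.99 CPM (log2 change -2.05). Both are annotated over sequence that resembles ribosomal RNA, so their counts are uncertain. Zc3h6, Kcnh3, 4930513N10Rik, Apol7d, Ubap1l, Celsr3, Rgs11, Nos3, Elavl3 and Rnf157 complete the 15 largest falls by the naming rule. Kcnh3, a potassium channel subunit, went from 7.54, 6.89 and 6.80 CPM to 2.77, 4.07 and 2.42 CPM, and stood at 21.5 to 23.6 CPM in Trim71KO cells. Rgs11 and Nos3 were not called without tagged replicate 2 (edgeR adjusted p 0.09 and 0.076). Among low-abundance genes, the olfactory receptor Olfr814 was at 0.05 to 0.19 CPM in untagged and at 1.85, 1.78 and 1.18 CPM in tagged cells (log2 change 3.57), and Pp2d1 changed by 2.90. Adm, which encodes the peptide adrenomedullin, changed by -2.68 and Mir7658 by -2.59. Adm was lost without tagged replicate 2 (edgeR adjusted p 0.091) and without any other library but untagged replicate 3 (highest 0.261). Rgs11 and Mir7658 were lost without untagged replicate 1.

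Some hypoxia-linked genes were lower in tagged cells and varied between the untagged dishes. Of 19 glycolysis and hypoxia genes 4 were called lower and 0 higher, beside 4.88% and 5.77% of all genes, with a median log2 change of -0.21. Ndrg1 stood at 28.0, 21.6 and 12.3 CPM in untagged and at 7.38, 13 and 13.6 CPM in tagged cells (log2 change -0.87). Egln3, an oxygen-sensing prolyl hydroxylase, stood at 36.2, 33.0 and 18.4 CPM against 12.9, 20.0 and 18.2 CPM (log2 change -0.78). Bnip3, a mitophagy receptor, was at 62.8, 51.7 and 34.4 against 24.5, 35.9 and 34.5 CPM (log2 change -0.65), and Vegfa, a vascular growth factor, at 125, 120 and 102 against 73.9, 93.0 and 87.8 CPM (log2 change -0.45). For the first 3 of these, untagged replicate 3 overlapped the tagged values. Without tagged replicate 2 only Vegfa of the list was called (edgeR adjusted p 0.013). Without untagged replicate 1 or 2 or tagged replicate 1 none of the 4 was called (highest edgeR adjusted p 0.274, for Ndrg1), and without tagged replicate 3 Vegfa alone was. Ndrg1 was also lost with the length offset (edgeR adjusted p 0.0547), with DESeq2, with a block for replicate number and in a fit of the 6 compared libraries alone. Egln3 was lost with DESeq2 too, and Bnip3 in the fit of the 6 compared libraries. Bhlhe40 and Ddit4, both stress-responsive and named for the size of their change, moved alike. Bhlhe40, a circadian repressor, fell from 46.3, 37.2 and 24.3 CPM to 9.29, 17.1 and 12.4 CPM (log2 change -1.47), and Ddit4, an inhibitor of mTOR signalling, from 44.9, 35.6 and 29.0 CPM to 11.4, 15.8 and 15.9 CPM (log2 change -1.34). Of 16 amino acid and unfolded protein stress genes, Ddit4, Ddit3 and Atf5 were lower and Dnajb9 was higher (log2 change 0.78). Atf5 lost its call without any 1 of the 6 libraries (highest edgeR adjusted p 0.138). In experiment 2 edgeR called 0 of the 19 glycolysis and hypoxia genes, with 0 at an unadjusted p under 0.05 and Bnip3 at 242 to 252 CPM in untagged and 270 to 273 CPM in tagged cells.

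Several germline genes were higher. Of 11 tested, 5 were called higher and 0 lower, beside 5.77% and 4.88% of all genes. All 11 had a log2 change above 0 (median 0.35). Dazl, an RNA-binding protein of germ cells, rose from 9.73, 11.6 and 12.4 CPM to 23.1, 29.4 and 22.1 CPM (log2 change 1.15, SE 0.13, edgeR adjusted p 2.73e-06), with Trim71KO cells at 22.3 to 25.9 CPM. Hormad1 (meiotic chromosome axis), Slc25a31 (an ADP/ATP carrier of germ cells), Stk31 and Mael (a piRNA pathway factor) changed by 1.00, 0.96, 0.84 and 0.33. Dazl and Stk31 were still called without tagged replicate 2, and the other 3 were not (edgeR adjusted p 0.12 for Hormad1, 0.083 for Slc25a31 and 0.19 for Mael). Hormad1 and Slc25a31 were also lost without untagged replicate 2, and Mael without tagged replicate 3 or any 1 untagged library. In experiment 2, 3 of the 11 were called higher, Dazl by 0.46 and Mael by 0.28 among them.

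Most pluripotency genes were not called, and the calls below stand beside 5.77% of all genes higher and 4.88% lower. A log2 change above 0 was seen for 10 of 15 naive, 8 of 8 general and 5 of 9 formative and primed genes. Of 15 naive genes, Nanog was called, at 557, 552 and 595 CPM in untagged and 762, 832 and 740 CPM in tagged cells (log2 change 0.45, edgeR adjusted p 0.0025). Of 8 general pluripotency genes, Sox2 (log2 change 0.48) and Dppa2 (0.36) were called higher, and Pou5f1, at 1524 to 1606 against 1414 to 1739 CPM, was not (log2 change 0.03). These 3 were called without tagged replicate 2 as well. Of 9 formative and primed genes, Foxd3 and Otx2 were higher (log2 change 0.46 and 0.34), and neither was called without tagged replicate 2 (edgeR adjusted p 0.056 and 0.18). Both were lost without tagged replicate 3 too, Foxd3 without untagged replicate 1, and Otx2 without untagged replicate 2 or 3. Of 17 primitive endoderm, 5 mesoderm, 6 neuroectoderm, 5 trophoblast, 6 fibroblast, 10 DNA methylation and 6 interferon genes, and of 2 genes of the 2-cell-like list, edgeR called 0, beside 10.6% of all genes. Of these 57 genes 8 had an unadjusted p under 0.05, beside 4112 of all 15005, and DESeq2 called 1, an interferon gene.

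Signalling and metabolic lists held a few calls each, beside 5.77% of all genes higher and 4.88% lower, and nothing particular to a list is read from these counts. Of 8 FGF-ERK feedback genes, Spred1 rose from 48.2, 48.4 and 47.8 CPM to 76.1, 67.7 and 68.2 CPM (log2 change 0.55), and Dusp6 was also called (log2 change 0.33). Of 11 Nodal and BMP genes, Id3 (log2 change 0.74) and Bmp4 (0.32) were higher and Lefty1, a Nodal antagonist, was lower, at 4.84, 3.51 and 4.96 CPM against 2.83, 2.35 and 2.36 CPM (log2 change -0.83). Of 10 Wnt targets Notum was higher and Axin2 lower (log2 change 0.77 and -0.39). Of 14 p53 response genes Pmaip1, Trp53inp1 and Ccng1 were higher and Cdkn1a, a cell-cycle inhibitor, was lower (log2 change -0.39). Cdkn1a was also the 1 gene called among 11 reported miR-290 targets, and of 9 reported TRIM71 targets it was lower and Egr1 higher, Egr1 being also the 1 call among 15 immediate early genes. Of 17 cholesterol synthesis genes 5 were higher, led by Idi1, an isomerase of the pathway (25.3, 25.5 and 27.0 against 41.8, 49.3 and 40.7 CPM, log2 change 0.76), and the regulator Srebf2 was lower (log2 change -0.40). Without tagged replicate 2, 1 of the 17 was called higher and 0 lower. Of 22 imprinted genes, Mest (log2 change 0.58) and Snrpn (0.29) were higher and Cdkn1c, Grb10 and Peg3 lower (-0.54, -0.44 and -0.41). Dusp6, Bmp4, Lefty1, Notum, Axin2, Trp53inp1, Ccng1, Snrpn and Peg3 were not called without tagged replicate 2, and each was also lost without 2 or more other libraries (highest edgeR adjusted p 0.283, for Axin2). Cdkn1a and Cdkn1c were called without tagged replicate 2 but not without any 1 of the other 5 libraries (highest edgeR adjusted p 0.116 and 0.13). Peg3 was also lost with the length offset (edgeR adjusted p 0.0855) and in a fit of the 6 compared libraries alone. Bmp4, Axin2, Trp53inp1 and Snrpn were lost in that fit too.

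The remaining lists held at most 2 calls each, beside the same shares of all genes. Of 25 deadenylation and decapping factors Cnot11 was higher and Cnot1 lower (log2 change 0.31 and -0.44), and of 9 microRNA biogenesis factors Ddx17 was lower (-0.41). Of 10 heat shock genes Hspd1 was higher and Hspa1a lower. Of 13 epithelial-mesenchymal genes Esrp1 was lower, of 6 structural non-coding RNAs Snhg1 was higher and Neat1 lower, of 14 Hox genes Hoxc13 was lower, and of 80 cytosolic ribosomal protein genes Rpl10l was higher (log2 change 0.53). Of 41 replication-dependent histone genes edgeR called 0, with 5 at an unadjusted p under 0.05, and DESeq2 called 1. Of the genes called here, Neat1 alone was still called without tagged replicate 2, and it was not called with the length offset (edgeR adjusted p 0.191). All but Neat1 and Rpl10l were also lost without at least 2 other libraries.

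The same comparison in experiment 2 called 217 of 15607 genes (1.39%), 114 higher (0.73%) and 103 lower (0.66%). Over the 14750 genes tested in both, 67 were called in both, which is 4.2% of the calls of experiment 1 and 31.8% of those of experiment 2, and 66 of them had the same sign (29 higher, 37 lower). Aire, a transcriptional regulator, was the exception, with log2 changes of -0.64 and 0.31. Among genes called in experiment 1 the median absolute log2 change was 0.47 in experiment 1 and 0.09 in experiment 2. Because these genes were selected on their experiment 1 values, a smaller median in experiment 2 is partly built into the choice. Of those genes 74.8% had the same sign in both, against 58.9% of all genes tested in both. Across all 14750 genes, which are not independent replicates, the changes correlated at Spearman's rho 0.256 and Pearson's r 0.241. The difference between the experiments, tested in a joint edgeR fit of the 12 input libraries, was called for 366 genes (2.48%), 262 upward in experiment 1 relative to experiment 2 (1.77%) and 104 downward (0.705%). Of the 366, 308 were also called in experiment 1.

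Genes that moved alike in both experiments included some with large changes, named after their values were seen. Ddr2, a collagen receptor, rose from 1.52, 1.34 and 1.42 CPM to 4.80, 2.35 and 3.17 CPM in experiment 1 (log2 change 1.26), and by 1.56 in experiment 2. Magohb, a core protein of the exon junction complex, changed by 1.49 and 0.66, and Spic, a transcription factor, by 1.16 and 1.2. Rnf157, a ubiquitin ligase, fell from 22.9, 21.3 and 21.2 CPM to 12.9, 9.29 and 11.8 CPM (log2 change -0.94), with -0.70 in experiment 2. Pgbd5, a gene derived from a transposase, changed by -1.51 and -1.05, Celsr3 by -1.04 and -0.69, Lefty1 by -0.83 and -0.86 and Grb10 by -0.44 and -0.30. Mest changed by 0.58 and 0.50 and Notum by 0.77 and 0.89. Lefty1 and Notum, named above as lost without tagged replicate 2, were thus called in the independent libraries of experiment 2 (edgeR adjusted p 0.04 and 0.0015).

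**Figure D5:**
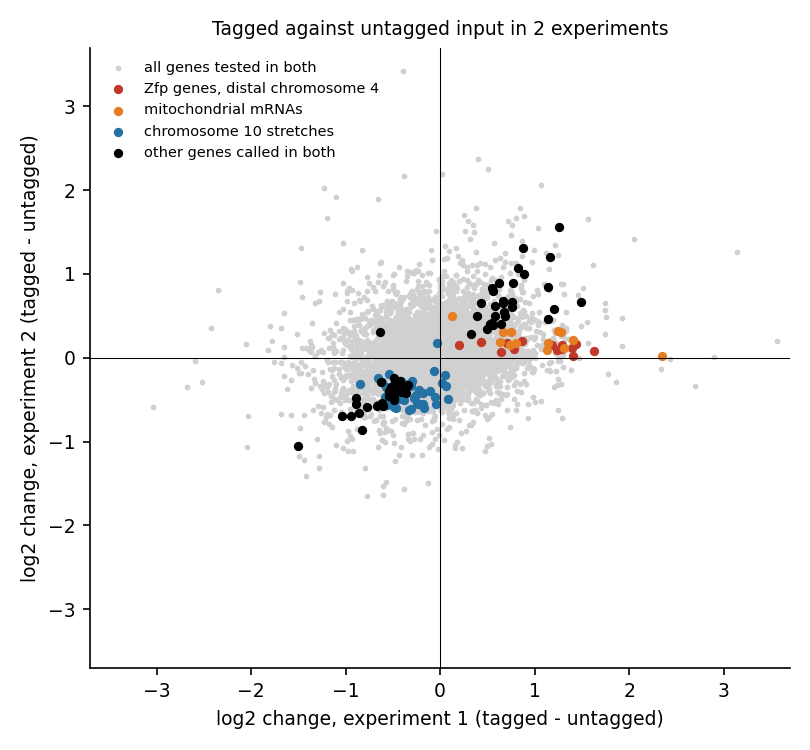
Log2 change (tagged minus untagged input) of each gene tested in both experiments, experiment 1 on the x axis and experiment 2 on the y axis. Zfp genes of distal chromosome 4 and mitochondrial mRNAs are spread along the x axis and lie near 0 on the y axis, while genes of the chromosome 10 stretches are mostly below 0 on both.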

How the data were processed

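RNA-seq libraries were prepared with a stranded total RNA kit, per the labels. The submitters' processing notes name bcl2fastq 2.20, STAR 2.7.3a and the builds GRCm38 and mm10. The counting tool, its use of strand and its treatment of reads with several matches are not given in the sources used here. The authors deposited raw read counts per gene and RPKM values per gene. RPKM served for cell type markers alone.

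Genes were placed on chromosomes by Entrez ID in a RefSeq table of GRCm38.p6. Counts of all 18 libraries of experiment 1 entered 1 edgeR 4.0.16 fit (R 4.3.3) with TMM factors, the filterByExpr filter and a mean for each group. The 24 libraries of experiment 2 were fitted alike, and the 12 untagged and tagged input libraries jointly for the difference between experiments. P-values were adjusted (Benjamini-Hochberg) over all genes tested, 18772 in experiment 1. CPM values use TMM-adjusted library sizes, log2 changes are tagged minus untagged, and each SE was taken as the ratio of the absolute log2 change to the root of its F statistic. On simulated counts for the experiment 1 comparison, 117, 181 and 197 of 200 changed genes were recovered at 1.5, 2 and 4-fold. These fits covered 18582, 18624 and 18627 genes, with 0 of the wrong sign and 6, 7 and 11 false calls. The simulated tagged libraries held no outlying replicate and no trend with gene length. They therefore do not show how reliable the calls on the real libraries are.

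The chi-square per gene between replicates was 2.87 to 3.54 among untagged and 8.27 to 28.2 among tagged libraries, so each counted as a replicate. With 3 against 3 libraries an exact permutation test of a single value cannot go below 0.1, so none is given. Alternatives were DESeq2 1.42.0, other scalings, filters and sets of libraries, a replicate block, each library left out and, chosen after seeing the data, an offset for gene length. The members and the 33 gene lists were chosen with earlier results of these data known. Genes named are the targeted genes, the 15 largest called changes each way among genes at a mean log2 CPM of at least 2 whose groups do not overlap, up to 4 called and 2 abundant members of each list, called genes beside Tnrc6a, genes that differ most between experiments, and the largest low-abundance changes. Other genes are said in the text to be chosen after their values were seen.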

Additional observations from a re-analysis of the deposited data

Results flagged for a closer look

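For the genes below the tagged minus untagged log2 change differed between experiments 1 and 2, tested as an interaction in the joint edgeR fit of 12 input libraries (adjusted p under 0.05). Values are the change in experiment 1 minus that in experiment 2, and single values of near-identical copies are uncertain.

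Among mitochondrial mRNAs the difference was 2.31 for ATP8, 1.17 for ND2, 1.18 for ATP6, 0.96 for ND6, 0.91 for ND3, 1.03 for ND1 and 0.57 for COX1, and it was 1.18 for Gm10925, the near-copy of ATP6. ATP8 was at 11.9 to 16.4 CPM in untagged cells of experiment 1 and at 38.3 to 82.2 CPM in those of experiment 2, so the untagged level itself differed between experiments.

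Among Zfp genes of chromosome 4 it was 1.53 for Zfp979, 1.37 for Zfp990, 1.26 for Zfp268, 1.26 for Zfp534, 1.17 for Zfp988, 1.15 for Zfp985 and 1.11 for Zfp987.

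For other genes higher in tagged cells of experiment 1 it was 1.46 for Slc24a5, 1.19 for Gm8935, 3.36 for Olfr814, 2.88 for Pp2d1, 2.45 for Mir684-1 and 2.43 for Mir1892. Slc24a5 stood at 41.0 to 44.7 CPM in untagged and 41.4 to 45.1 CPM in tagged cells of experiment 2, nearer to the tagged level of experiment 1. Smaller differences were 0.67 for Dazl, 0.70 for Spred1, 0.56 for Dusp6, 0.52 for Trp53inp1, 0.49 for Ccng1, 0.67 for Dnajb9 and 0.54 for Idi1.

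On the lower side the difference was -2.48 for Bc1, -1.45 for Lars2, -1.31 for Bhlhe40, -2.80 for Bhlhe41, -1.22 for Ddit4, -0.95 for Zc3h6, -0.87 for Kcnh3, -1.19 for 4930513N10Rik, -1.11 for Apol7d, -2.57 for Ms4a14, -2.42 for Dusp15 and -1.03 for Hoxc13. For genes of the hypoxia and cholesterol lists it was -0.92 for Egln3, -0.81 for Bnip3, -0.47 for Vegfa and -0.42 for Srebf2. Of these genes, Ms4a14 and Dusp15 were not called in experiment 1 itself, in any setting or with any library left out. Hoxc13 lost its experiment 1 call without any 1 of the 6 libraries. Bhlhe41 was at 1.96, 2.03 and 1.61 CPM in untagged and at 0.06, 0.46 and 0.48 CPM in tagged cells of experiment 1, and at 3.54 to 3.97 against 3.95 to 5.66 CPM in experiment 2.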

How the results depend on the processing

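Of 90 named genes called, 50 stayed called with each of 6 libraries left out and in each of 8 other settings that gave them a result. Olfr814 and Pp2d1, among the 50, had a result in 7 of the 8. At least 1 setting lost the call of 22 genes, at least 1 left-out library that of 39, and none of the named results reversed. Calls were lost for 35 without tagged replicate 2, 31, 29 and 23 without untagged replicate 1, 2 and 3, 10 without tagged replicate 1 and 23 without tagged replicate 3. The cause was not tested. With single libraries left out, experiment 1 gave 571 to 2509 calls (376 to 1420 higher, 195 to 1089 lower), experiment 2 gave 117 to 147, and the difference between experiments 142 to 2119.

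Against 866 genes higher, library size alone gave 545, the 9 input libraries 1323 and DESeq2 1387, with 34.0%, 55.6% and 64.7% of calls higher. The length offset, chosen after seeing the data, gave 1281 higher and 677 lower. Fits of the 6 compared libraries alone gave 1278 calls against 1598 in experiment 1, 1156 of them shared, and 417 against 217 in experiment 2. In experiment 1 that setting lost 15 of the 90 named calls, more than any other setting. DESeq2 gave 646 calls against 366 for the difference. Same-numbered dishes did not deviate together (correlations 0.00, 0.16 and -0.12 in experiment 1), so numbers were not taken to pair samples. A replicate block gave 1629 calls in experiment 1, 260 in experiment 2 and 224 for the difference. Medians of all genes moved to 0.04 with DESeq2's size factors and -0.05 with library size alone. Leaving a library out leaves 2 in its group, and low counts limit genes such as Olfr814 and Adm.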
